A study of Rattus norvegicus with 28 samples.

Results

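The 7 genes Fos, Fosb, Fosl1, Fosl2, Jun, Junb and Jund, which encode the FOS and JUN families of transcription factors, were read from the deposited transcript table by their symbols. They were 7 of 17455 gene symbols in the table, and all 7 were among the 10275 genes that entered the tests because they averaged 1 TPM or more (TPM is a read count scaled on transcript length and library depth). FOS and JUN proteins are basic leucine zipper factors that pair with each other, or JUN with JUN, to form activator protein-1 (AP-1), which binds DNA at AP-1 sites and related elements. Most of them are immediate early genes: their transcription starts within minutes of a stimulus without new protein synthesis, and their mRNAs are short-lived. In beta cells several of them are known targets of cyclic AMP, whose signal passes from the GLP-1 receptor through protein kinase A to the factor CREB.

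RNA was sequenced from INS-1 cells, a rat insulinoma line used as a beta cell model, in 14 groups of 2 libraries each. WT cells and cells in which a serine of the endogenous Med14, the scaffolding subunit of Mediator, was changed to alanine by CRISPR knock-in (S983A) were left untreated (CON) or were given 10 nM exendin-4 (Ex-4), a GLP-1 receptor agonist, or 10 µM forskolin (FSK), which activates adenylate cyclase directly, for 1, 8 or 16 h after a wash into serum-free medium. The labels do not say which knock-in line or which culture a library came from, so the p-values below measure the spread between these libraries, which may be technical. Each genotype had 1 CON group, whose time in serum-free medium is not stated, and all times shared it.

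The libraries held 42551133 to 92635979 fragments, the deepest being replicate 2 of S983A at 8 h of FSK and the next 57231981. Med14 mRNA was 21.5 and 20.3 TPM in the WT CON libraries and differed by -0.06 on the log2 scale in S983A (SE 0.07, limma adjusted p = 0.404), which checks nothing about a point mutation. All 11 beta cell markers found in the table were at 10 TPM or more in every library. Of the alpha cell markers, Gcg ranged from 6.09 to 1345 TPM while Irx2 and Ttr stayed under 1 TPM in all libraries. The cells were sequenced in bulk, so fewer cells carrying a transcript and less of it per cell cannot be told apart.

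On the rat build rn6 used by the table, Fos (NM_022197) lies at chr6:109300433-109303299, Fosb (NM_001256509) at chr1:80214691-80221417, Fosl1 (NM_012953) at chr1:220826560-220835066 and Fosl2 (NM_012954) at chr6:25598936-25616995. Jun (NM_021835) lies at chr5:114011186-114014277, Junb (NM_021836) at chr19:26092972-26094756 and Jund (NM_001286966) at chr16:20485028-20486707. Jund had 2 entries with the same coordinates, and Fosl2 had 2 with the same outer coordinates and exon lengths of 603 and 853 bases. For both genes the entry with the higher mean was used, and summing the entries changed no call. TPM is scaled on the annotated exon length, so levels of different members are compared only as far as that length holds.

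RefSeq promoter windows on GRCr8, running from 250 bases before to 50 after the start, were matched for 5 of the 7 members, Fosb, Fosl1, Fosl2, Junb and Jund. The whole windows were searched on both strands for the full cyclic AMP response element (CRE) TGACGTCA and its half-site TGACG, since CRE elements are where CREB binds. They were also searched for the AP-1 site TGANTCA and the serum response element by its CArG core. All matches lay upstream of the start. The sequences below are shown because they held a match, and the match is in capitals. They are 250-base stretches of the member's own strand, read 5′ to 3′ and ending at the base before the start, at chr16:18769772-18770021 (minus strand), chr19:40080876-40081125 (plus strand) and chr1:212183635-212183884 (plus strand).
Jund: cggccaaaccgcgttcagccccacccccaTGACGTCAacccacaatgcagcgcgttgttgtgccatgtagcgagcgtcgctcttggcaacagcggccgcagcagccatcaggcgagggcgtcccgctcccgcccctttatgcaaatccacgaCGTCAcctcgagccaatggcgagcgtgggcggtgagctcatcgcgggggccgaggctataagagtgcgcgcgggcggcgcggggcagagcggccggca
Junb: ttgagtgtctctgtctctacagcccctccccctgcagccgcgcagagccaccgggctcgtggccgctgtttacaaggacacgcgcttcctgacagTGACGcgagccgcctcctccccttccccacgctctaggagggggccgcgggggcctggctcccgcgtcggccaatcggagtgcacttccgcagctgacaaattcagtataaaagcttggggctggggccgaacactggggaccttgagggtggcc
Fosl1: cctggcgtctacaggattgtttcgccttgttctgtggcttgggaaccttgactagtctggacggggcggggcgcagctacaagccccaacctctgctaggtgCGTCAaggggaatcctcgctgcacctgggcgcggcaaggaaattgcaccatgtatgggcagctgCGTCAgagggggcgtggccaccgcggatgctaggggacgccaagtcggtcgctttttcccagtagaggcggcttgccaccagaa
Jund held the full CRE at -221 to -214, in which the half-site reads on both strands, and a further half-site on the minus strand at -98 to -94. Junb held 1 half-site, on the plus strand at -155 to -151. Fosl1 held 2 half-sites on the minus strand, at -148 to -144 and at -84 to -80. None of the 4 elements was found in the stretch upstream of Fosb or Fosl2. Among 33469 RefSeq rat promoter windows, 1.83% held the full CRE, 21.2% the half-site, 7.33% the AP-1 site and 1.64% the serum response element. These shares cover the whole window, from 250 bases before to 50 after the start, and not only the stretch shown. A match is a string of letters and was not tested for binding.

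The first comparison asked how far the family responded within 1 h. All 7 members rose in both genotypes with both agents, 28 of 28 changes past an adjusted p of 0.05 and 1.5-fold by limma. Fold changes here and below are taken on TPM + 1, which understates those of low levels. Of all 10275 genes tested, 1.75% were called higher in WT after Ex-4, 2.53% in WT after FSK, 2.03% in S983A after Ex-4 and 3.19% in S983A after FSK. The median log2 change of the 7 members was 3.96, 5.75, 3.66 and 5.79 in the same order, and that of all genes lay between -0.11 and -0.04. The largest adjusted p of the 28 was 2.22e-07, for Fosl1 in S983A after Ex-4.

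Among the FOS members, Fos, the founding gene of the family, was at 2.16 and 1.91 TPM in WT CON, at 45.1 and 47.1 after 1 h of Ex-4 and at 161 and 163 after 1 h of FSK. The S983A libraries stood at 0.993 and 0.958 TPM in CON, 23.1 and 28.1 after Ex-4 and 112 and 105 after FSK. No treated library overlapped CON in either genotype, and the log2 change in WT was 3.96 ± 0.10 (SE) for Ex-4 and 5.75 ± 0.10 for FSK.

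Fosb, a partner of JUN proteins like Fos, was at 0.306 and 0.283 TPM in WT CON, where 24 and 27 fragments stood behind the values. It reached 31.8 and 36.8 TPM after Ex-4 and 253 and 262 after FSK in WT, and 18.7 and 20.3 after Ex-4 and 208 and 211 after FSK in S983A. The log2 change after FSK, 7.64 ± 0.08 in WT, was the largest of the 7 members in WT on the log2(TPM + 1) scale, which understates the change of a gene this low in CON.

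Fosl1, which encodes FRA-1, was listed at 0 in replicate 1 of both CON groups, where 3 fragments would have been 0.0765 TPM in WT and 0.0655 in S983A, and rested on 5 and 2 fragments in the other CON libraries. It was at 2.07 and 2.89 TPM after Ex-4 and 17.9 and 18.2 after FSK in WT. In S983A it was at 0.902 and 1.04 TPM after Ex-4 and 12.8 and 12 after FSK. It was the lowest member in CON, and its log2 changes of 1.72 ± 0.11 for Ex-4 and 4.18 ± 0.11 for FSK in WT depend on the pseudocount of 1 TPM.

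Fosl2, which encodes FRA-2, rose from 2.05 and 1.95 TPM in WT CON to 112 and 119 after Ex-4 and 353 and 345 after FSK. In S983A it rose from 1.36 and 1.57 TPM to 123 and 113 after Ex-4 and to 466 and 557 after FSK. It was the FOS member with the highest level at 1 h in all 4 treated groups, and its log2 change after FSK was 6.87 ± 0.08 in WT and 7.70 ± 0.08 in S983A.

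Among the JUN members, Junb, which encodes a JUN protein that binds DNA but is a weaker activator than c-JUN, was the most abundant member after 1 h of FSK. It was at 22.4 and 22.1 TPM in WT CON, 380 in both libraries after Ex-4, and 1398 and 1427 after FSK. In S983A the levels were 10.2 and 11.7 TPM in CON, 133 and 170 after Ex-4, and 1094 and 1039 after FSK. Its log2 change was 4.04 ± 0.08 and 5.93 ± 0.08 in WT after Ex-4 and FSK, and 3.66 ± 0.08 and 6.48 ± 0.08 in S983A.

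Jun, which encodes c-JUN, had the smallest change after Ex-4 in WT. It was at 8.25 and 8.18 TPM in WT CON, 17.3 and 16.9 after Ex-4 and 57.0 and 64.1 after FSK, changes of 1.96-fold and 6.67-fold. S983A cells held 15.5 and 16.1 TPM in CON, 32.0 and 34.2 after Ex-4 and 112 and 101 after FSK, changes of 2.03-fold and 6.39-fold. The S983A CON libraries were nearly as high as the WT libraries after 1 h of Ex-4 and did not overlap them.

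Jund, the member known for steady expression in resting cells, was the highest in CON at 96.1 and 108 TPM in WT and 115 and 132 in S983A. After 1 h it was at 258 and 286 TPM with Ex-4 and 411 and 430 with FSK in WT, and at 200 and 230 with Ex-4 and 372 and 335 with FSK in S983A. It had the smallest change of the 7 after FSK, 4.10-fold in WT and 2.85-fold in S983A.

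**Figure D1:**
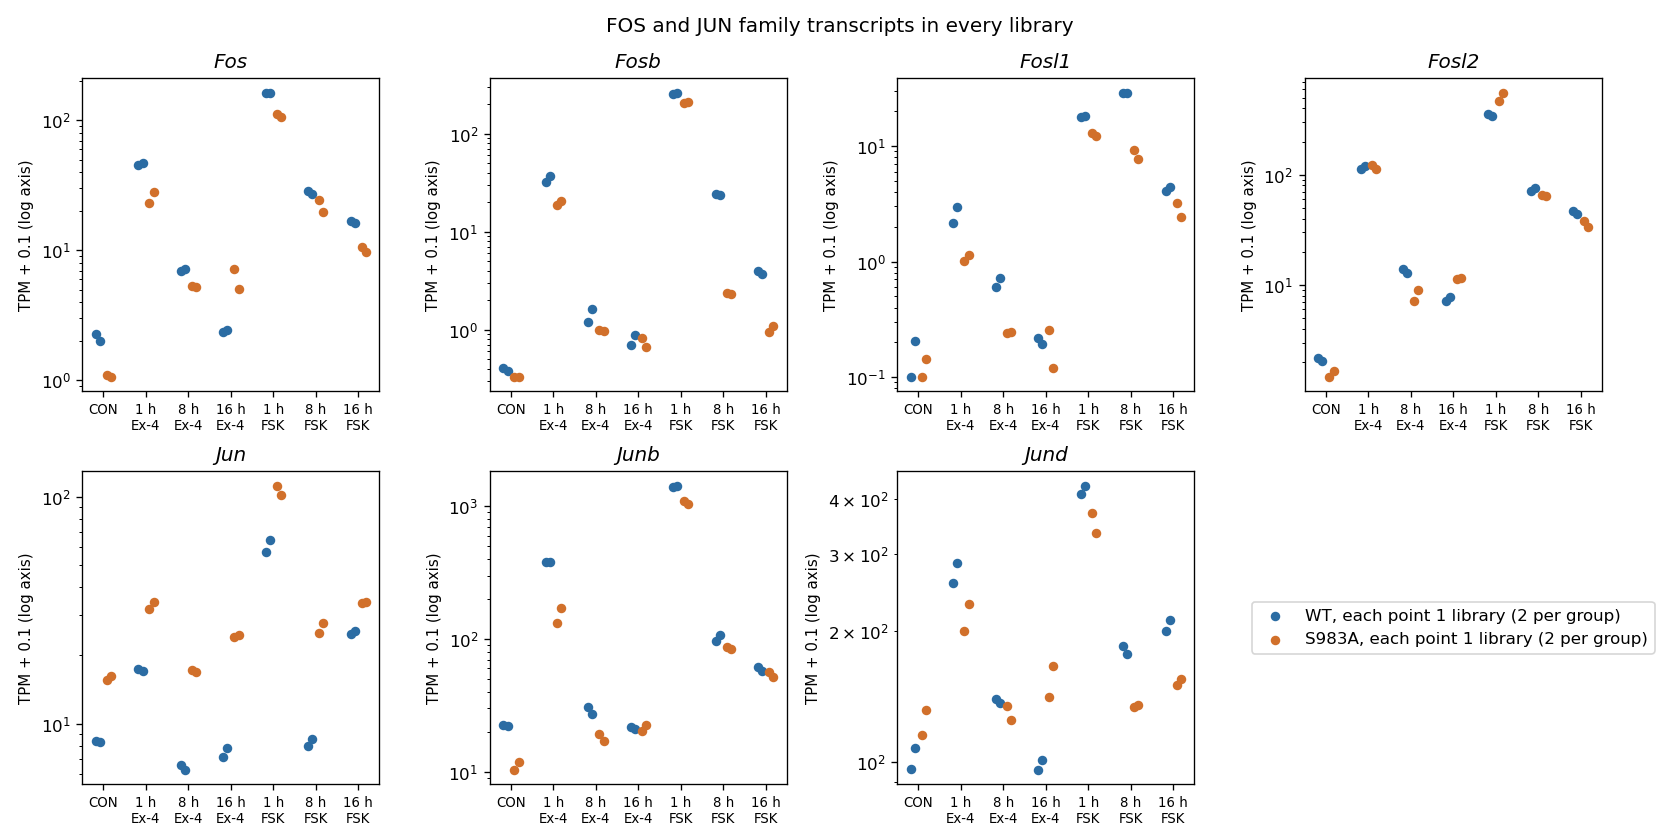
TPM plus 0.1 on a log axis for each of the 7 genes, each point 1 of the 28 libraries, by treatment along the x axis and by genotype in colour. Every gene peaks at 1 h of FSK except Fosl1 in WT, which is highest at 8 h of FSK, and the S983A points of Jun lie above the WT points in all 7 conditions.

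**Figure D2:**
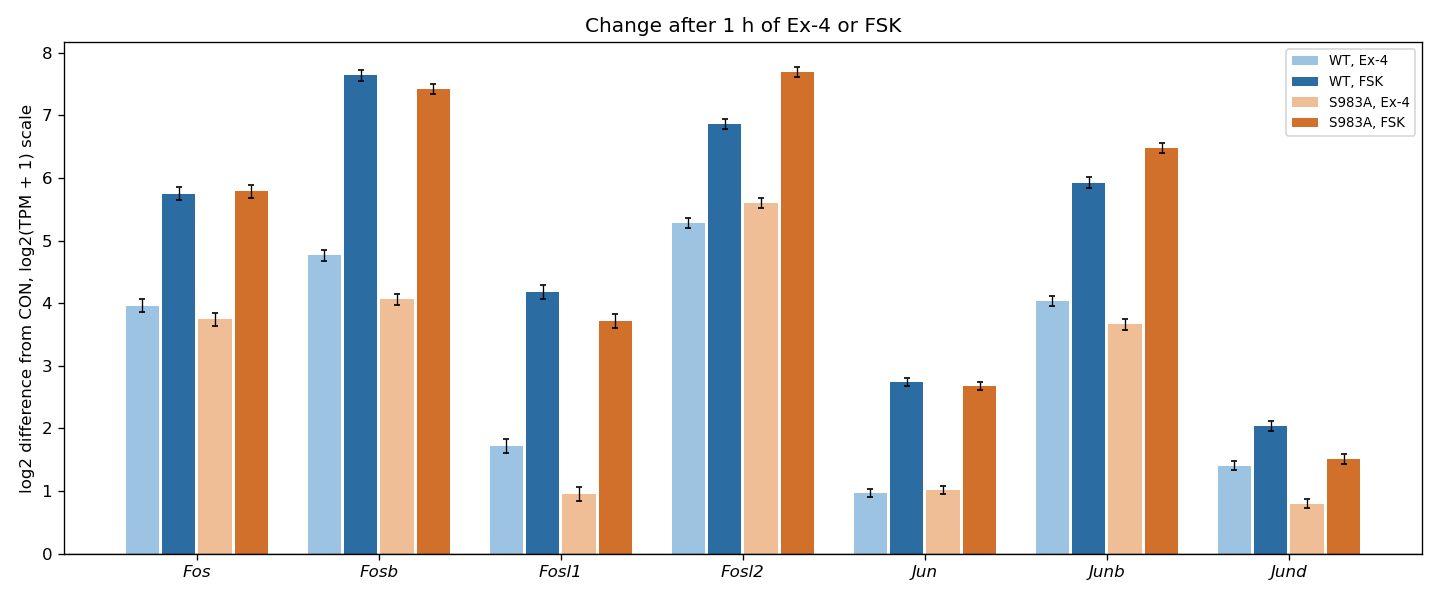
Difference from CON after 1 h on the log2(TPM + 1) scale for each gene, bars being the limma estimate and error bars its SE, for WT and S983A with Ex-4 and FSK. All 28 bars are above 0, and for each gene and genotype the FSK bar is higher than the Ex-4 bar.

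The next comparisons asked what was left of the response at 8 and 16 h. At 8 h, 19 of 28 changes were called, all higher: 3 of 7 members in WT and 4 of 7 in S983A after Ex-4, and 6 of 7 in each genotype after FSK. Of all genes, 3.61% were called higher in WT after Ex-4, 8.77% in WT after FSK, 3.21% in S983A after Ex-4 and 11.6% in S983A after FSK. At 16 h, 18 of 28 were called, again all higher: 1 of 7 in WT and 4 of 7 in S983A after Ex-4, and 7 of 7 in WT and 6 of 7 in S983A after FSK. The share of all genes called higher at 16 h was 3.53% in WT and 4.73% in S983A after Ex-4, and 10.3% in WT and 12.2% in S983A after FSK. The median log2 change of all genes was lowest at 8 h of FSK, -0.34 in WT and -0.28 in S983A.

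Fosl2 was the member called in 12 of 12 treatment contrasts. In WT it was at 13.8 and 12.9 TPM at 8 h and 7.08 and 7.68 at 16 h of Ex-4, and at 71.1 and 75.4 and then 46.7 and 44.0 TPM with FSK. It was the single member called by limma in WT at 16 h of Ex-4, with a change of 2.79-fold on TPM + 1 (adjusted p = 8.68e-14). In mean TPM it was at 7.38 there against 2.00 in CON. With edgeR and DESeq2 on recovered fragments, Fosb was also called in that contrast. The S983A levels were 7.05 and 8.83 TPM at 8 h and 11.3 and 11.4 at 16 h of Ex-4.

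Fos in WT was at 6.80 and 7.05 TPM at 8 h and 2.24 and 2.32 at 16 h of Ex-4, so that 11.1% of its mean 1 h rise above CON was left at 8 h and 0.551% at 16 h. S983A cells held 5.23 and 5.16 TPM at 8 h and 7.11 and 4.91 at 16 h of Ex-4, with 17.1% and 20.4% of the rise left. The 16 h libraries of the 2 genotypes did not overlap. With FSK, Fos was at 28.6 and 26.9 and then 16.7 and 16.2 TPM in WT, and at 24.1 and 19.7 and then 10.6 and 9.59 TPM in S983A.

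Fosl1 in WT was higher at 8 h than at 1 h of FSK, with 28.7 and 28.8 TPM against 17.9 and 18.2. In S983A the order was the other way, with 9.14 and 7.60 TPM at 8 h against 12.8 and 12 at 1 h. At 16 h of FSK it was at 3.99 and 4.35 TPM in WT and 3.13 and 2.34 in S983A. With Ex-4 it was at 0.502 and 0.617 TPM at 8 h in WT, a log2 change of 0.57 ± 0.11 that lay under the 1.5-fold limit, and at or under 0.157 TPM in the 4 libraries at 16 h. That 8 h change was called with a log2 of 0.64 without WT CON replicate 2 and of 0.62 without WT 8 h Ex-4 replicate 1, and it was also called by edgeR (3.30), by DESeq2 (3.39), with median-centring (0.69) and with a pseudocount of 0.1 TPM (2.20). In S983A the 8 h change of Fosl1 with Ex-4 was 0.16 ± 0.11 and not called by limma, and edgeR (2.60) and DESeq2 (2.75) called it.

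Fosb in WT was at 24.2 and 23.5 TPM at 8 h of FSK and at 3.87 and 3.59 at 16 h. In S983A it was at 2.25 and 2.23 TPM at 8 h and 0.858 and 0.992 at 16 h of FSK. The S983A values at 8 h were below the WT values at 16 h. After 8 h of Ex-4 it was at 1.10 and 1.55 TPM in WT and 0.901 and 0.877 in S983A, and at 16 h all 4 libraries lay between 0.573 and 0.783 TPM. Those 16 h levels differed from CON by 0.38 ± 0.08 in WT and 0.42 ± 0.08 in S983A on the log2(TPM + 1) scale, under the fold limit. Both were called higher by edgeR (1.36 in WT and 1.56 in S983A), by DESeq2 (1.39 and 1.58), by DESeq2 with spike-in size factors (1.55 and 1.41) and by limma with a pseudocount of 0.1 TPM (0.99 and 1.18).

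Junb was back near CON in WT at 16 h of Ex-4, with 21.7 and 21 TPM against 22.4 and 22.1, and 5.70% and 2.69% of its 1 h rise were left at 8 and 16 h of FSK (96.7 and 106 and then 61.8 and 57.6 TPM). In S983A it was at 19.3 and 17 TPM at 8 h and 20.2 and 22.5 at 16 h of Ex-4, both called higher than CON, and at 86.3 and 83.2 and then 56.2 and 51.6 TPM with FSK. The S983A CON libraries were lower than every other library of Junb.

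Jun had no change called in WT at 8 h: it was at 6.51 and 6.14 TPM with Ex-4 (log2 -0.33 ± 0.06, limma adjusted p = 0.000107, under the 1.5-fold limit) and at 7.86 and 8.50 with FSK (log2 -0.01 ± 0.06). At 16 h of FSK in WT it was at 24.8 and 25.6 TPM, 2.84-fold above CON, after the lower values at 8 h. In S983A it was at 17.1 and 16.8 TPM and then 24.1 and 24.4 at 8 and 16 h of Ex-4, and at 24.9 and 27.8 and then 34.0 and 34.1 TPM with FSK. The S983A change at 16 h of Ex-4 (log2 0.59 ± 0.06, 1.5-fold) stood at the limit and was no longer called without S983A CON replicate 1 (0.57), without S983A 16 h Ex-4 replicate 2 (0.58) or with spike-in scaling (0.48 by limma and 0.51 by DESeq2).

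Jund in WT was at 139 and 136 TPM at 8 h and 95.6 and 101 at 16 h of Ex-4, neither called, and at 184 and 177 and then 199 and 211 TPM with FSK, both called. The S983A levels were 134 and 125 TPM and then 141 and 165 with Ex-4, and 134 and 135 and then 150 and 155 with FSK, none of them called. It was the member called in the fewest treatment contrasts, 6 of 12.

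Set directly against 8 h, the 16 h libraries differed in 13 of 28 member contrasts. With FSK, 5 members were lower and 1 higher at 16 h in WT, where 17.6% of all genes were called in either direction, and 5 were lower in S983A, where 27.9% were. With Ex-4, 2 members were lower in WT and 0 were called in S983A, where 5.58% and 3.96% of all genes were called. In S983A with Ex-4, 5 of the 7 had an unadjusted p under 0.05 in limma and 4 an adjusted one, Fosl2, Jun, Junb and Jund, all higher at 16 h by 0.22 to 0.49 on the log2 scale and under the fold limit. There edgeR and DESeq2 also called 0 members, and DESeq2 with spike-in size factors called 1, Fosb (-0.61). In WT with FSK the steepest falls were those of Fosl1 (log2 -2.52 ± 0.11) and Fosb (-2.39 ± 0.08), while Jun was higher (1.51 ± 0.06). With scaling on the ERCC spike-in, 8 of 28 were called, and Fos, Fosl2 and Junb in WT and Fosb, Fosl2 and Junb in S983A were no longer called with FSK. In S983A with FSK, Jun was called higher at 16 h with that scaling (0.68). In WT with Ex-4, Fosl1 (-0.50 by limma) was called lower by edgeR (-2.32), by DESeq2 (-2.34) and with a pseudocount of 0.1 TPM (-1.68). Fosb in WT with Ex-4 (-0.45 by limma) was called lower by edgeR (-0.86), by DESeq2 (-0.86), with a pseudocount of 0.1 TPM (-0.84) and without WT 8 h Ex-4 replicate 1 (-0.59). Fosl2 in S983A with Ex-4 (0.47) was called without S983A 8 h Ex-4 replicate 2 (0.61).

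The series held both agents at the same times, so Ex-4 was set against FSK within each genotype. FSK raises cyclic AMP in any cell, Ex-4 only where the GLP-1 receptor is present, and the doses are of different kinds. Members were called lower with Ex-4 in 36 of 42 contrasts, and no member was called higher. All 7 members were lower with Ex-4 at 1 h in both genotypes, where 1.14% of all genes in WT and 1.58% in S983A were called lower. At 8 h, 5 of 7 were called lower in WT and 6 of 7 in S983A (4.77% and 6.72% of all genes). The other 2 members at 8 h in WT, Jun (-0.33) and Jund (-0.39), were called lower with median-centring (-0.59 and -0.66), by edgeR (-0.61 and -0.63) and by DESeq2 (-0.62 and -0.64), the median of all genes in that contrast being 0.23. At 16 h, 7 of 7 were called lower in WT and 4 of 7 in S983A (7.29% and 5.76% of all genes). In S983A at 16 h, DESeq2 also called Fosb lower (-0.61), and spike-in scaling Jun (-0.81).

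In mean TPM, Ex-4 gave 28.4% of the FSK level for Fos at 1 h in WT, 13.3% for Fosb, 13.8% for Fosl1, 33.1% for Fosl2, 28.2% for Jun, 26.9% for Junb and 64.6% for Jund. In S983A the same shares at 1 h were 23.6%, 9.31%, 7.84%, 23.1%, 31.1%, 14.2% and 60.8%. Jund was the member with the closest levels between the agents at 1 h in both genotypes, at 8 h in WT it stood at 76.3% and Jun at 77.3%, and in S983A its libraries overlapped between them at 8 h and at 16 h. Fosl1 was the furthest apart at the later times, with Ex-4 at 1.95% of FSK at 8 h and 2.53% at 16 h in WT. The call for Jund at 1 h in WT (log2 -0.63) was lost without WT 1 h Ex-4 replicate 1 (-0.56), that for Jun at 8 h in S983A (-0.60) without S983A 8 h FSK replicate 2 (-0.53), and that for Fos at 16 h in S983A (-0.68) without S983A 16 h Ex-4 replicate 2 (-0.45). With spike-in scaling the calls in S983A for Jund at 1 h (-0.52) and Jun at 8 h (-0.51) were lost.

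The difference between the genotypes without treatment was read in CON. The labels do not name the knock-in line, so the mutation and differences between cell lines cannot be told apart. In S983A, Jun was higher (log2 0.87 ± 0.06, 1.82-fold, limma adjusted p = 1.05e-11), and Junb (-0.96 ± 0.08, adjusted p = 2.77e-10) and Fos (-0.62 ± 0.10, adjusted p = 1.12e-05) were lower. These were 3 of 7 members, where 19.4% of all genes were called in either direction. On the log2(TPM + 1) scale the difference of Fos lay under the fold limit without WT CON replicate 1 (-0.56), with median-centring (-0.53) and with spike-in scaling (-0.50). That scale understates a difference at such low levels. Fos averaged 2.04 TPM in WT and 0.976 in S983A, a ratio of 0.479, and the libraries did not overlap. Fosl2 (-0.29 ± 0.08) and Jund (0.27 ± 0.08) had adjusted p-values of 0.00329 and 0.00278 and lay under the fold limit, and Fosb (-0.08 ± 0.08) and Fosl1 (-0.04 ± 0.11) did not pass the test.

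Over all 7 conditions, both S983A libraries of Jun were above both WT libraries in 7 of 7, with a ratio of mean TPM between 1.35 at 16 h of FSK and 3.30 at 16 h of Ex-4. Both S983A libraries of Fos and of Junb were below both WT libraries in 6 of 7. The exception for Fos was 16 h of Ex-4, where S983A stood at 2.64 times WT, and the exception for Junb was the same condition, where the libraries overlapped. Fosb was lower in S983A in 6 of 7 conditions and Fosl1 in 5 of 7, with overlap in the others. Fosl2 and Jund were higher in S983A in 2 conditions each and lower in 4 and 5.

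Jun lies on chromosome 5 among genes that also differed between the genotypes in CON. Of the 25 tested genes on each side of it, 36 of 50 had a log2 difference above 0 and 16 were called higher and 4 lower in S983A, with a median of 0.33. Ift74 and Fggy, the nearest on either side, differed by 1.02 and 1.03, against 0.87 for Jun itself. Around the other 6 members the median of the 50 neighbours lay between -0.08 and -0.01. What part the position of Jun had in its difference was not tested.

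**Figure D3:**
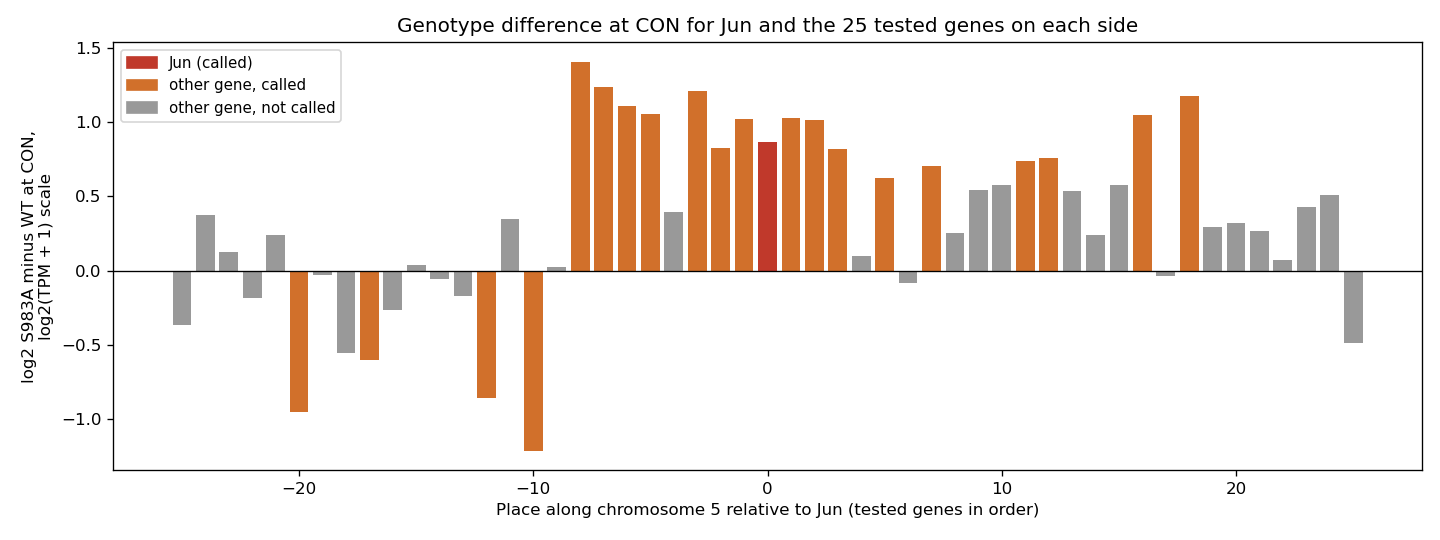
Log2 difference of S983A minus WT in CON, on the log2(TPM + 1) scale, for Jun at place 0 and the 25 tested genes on each side in their order along chromosome 5, coloured by whether limma called them. The called genes with positive differences sit mostly next to Jun, from 8 places below it to 18 above, and the 4 called lower sit further out on the low side.

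The difference in response between the genotypes was put as an interaction. This is the treatment change in S983A minus that in WT on the log2(TPM + 1) scale. A value below 0 means a smaller rise, or a steeper fall, in S983A. It can come from the treated levels, from CON or from both. In all, 16 of 42 interactions were called by limma.

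At 1 h of Ex-4, 3 of 7 members had a smaller change in S983A, where 0.672% of all genes were called in either direction. They were Fosb (-0.71 ± 0.12, adjusted p = 0.000663), Fosl1 (-0.77 ± 0.15, adjusted p = 0.00436) and Jund (-0.61 ± 0.11, adjusted p = 0.000984). The differences for Fosb and Fosl1 were not called with a pseudocount of 0.1 TPM (-0.54 and -1.0, adjusted p = 0.227 and 0.416) or by edgeR on recovered fragments (-0.42 and -0.09, adjusted p = 0.805 and 1), and DESeq2 called neither (-0.40 and 0.027). Fosb was also lost with spike-in scaling (-0.56, adjusted p = 0.0776). Fosl1 was also lost without WT 1 h Ex-4 replicate 2 (-0.60, adjusted p = 0.0636), and Jund fell under the fold limit without that library (-0.54), without WT CON replicate 1 (-0.53), S983A CON replicate 2 (-0.51) or S983A 1 h Ex-4 replicate 1 (-0.51).

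At 1 h of FSK, Fosl2 had a larger change in S983A (0.83 ± 0.11, adjusted p = 1.66e-05), 1 of 7 members where 1.64% of all genes were called by limma. This call was lost with DESeq2 and spike-in size factors (0.72, adjusted p = 0.0506). Junb (0.56 ± 0.12) and Jund (-0.52 ± 0.11) passed an adjusted p of 0.05 and lay under the fold limit. Junb was called by edgeR (0.61), by DESeq2 (0.64), with a pseudocount of 0.1 TPM (0.61), without S983A CON replicate 2 (0.65) and without S983A 1 h FSK replicate 2 (0.59). Jund was called with spike-in scaling (-0.78), without WT CON replicate 2 (-0.60), S983A CON replicate 1 (-0.62) or S983A 1 h FSK replicate 1 (-0.60).

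At 8 h of Ex-4, 0 of 7 members were called by limma, edgeR or DESeq2, 5 had an unadjusted p under 0.05 in limma, and 2.77% of all genes were called by limma. With a pseudocount of 0.1 TPM limma called 1, Fosl1 (-1.17, adjusted p = 0.044, against -0.41 with 1 TPM). The adjusted p alone passed for Jun (0.43 ± 0.09), Fosl2 (-0.40 ± 0.11) and Jund (-0.36 ± 0.11).

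At 8 h of FSK, 5 of 7 members were called, where 13.9% of all genes were. Fosb had the largest difference of the 42 interactions, -2.86 ± 0.12 (adjusted p = 9.56e-16), its S983A libraries standing at 2.25 and 2.23 TPM against 24.2 and 23.5 in WT. Fosl1 (-1.63 ± 0.15) and Jund (-0.70 ± 0.11) also had a smaller change in S983A, and Jun (0.71 ± 0.09) and Junb (0.71 ± 0.12) a larger one. The call for Fosl1, which CON held at 0 to 5 fragments, was not made by edgeR (-0.55, adjusted p = 0.825) or DESeq2 (-0.44, adjusted p = 0.786), while the treated libraries themselves did not overlap. Fos, at 0.29 and not called by limma, was called with a larger change in S983A by edgeR (0.65, adjusted p = 0.0436), by DESeq2 (0.67, adjusted p = 0.00942) and with a pseudocount of 0.1 TPM (0.64).

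At 16 h of Ex-4, 4 of 7 members were called, all with a larger change in S983A, where 7.24% of all genes were called. Fos had the largest difference (1.70 ± 0.15, adjusted p = 1.68e-09), followed by Junb (0.96 ± 0.12), Fosl2 (0.84 ± 0.11) and Jun (0.73 ± 0.09). Of these, Fosl2 (0.51), Jun (0.34) and Junb (0.55) were no longer called with spike-in scaling, under which the median interaction of all genes was -0.32 instead of 0.09, and Fos still was. DESeq2 with spike-in size factors also lost Fosl2 (0.61, adjusted p = 0.0759) and Jun (0.34), and kept Junb.

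At 16 h of FSK, 3 of 7 members were called, where 6.40% of all genes were called with a smaller change in S983A and 10.6% with a larger one. Fosb (-1.22 ± 0.12) and Jund (-0.70 ± 0.11) had a smaller change in S983A and Junb (0.82 ± 0.12) a larger one. In mean TPM, Junb in S983A stood at 0.493 times WT in CON, 0.835 times at 8 h of FSK and 0.902 times at 16 h of FSK. At 16 h of Ex-4 its libraries overlapped between the genotypes. The larger changes of Junb in S983A thus started from a lower CON level and did not bring it above WT with FSK. Jun (-0.45 ± 0.09, adjusted p = 0.000195) lay under the fold limit by limma and was called by edgeR (-0.61, adjusted p = 1.12e-05), by DESeq2 (-0.60) and by DESeq2 with spike-in size factors (-0.66). Fosl1 (-0.44 ± 0.15) was called without S983A 16 h FSK replicate 1 (-0.59).

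**Figure D4:**
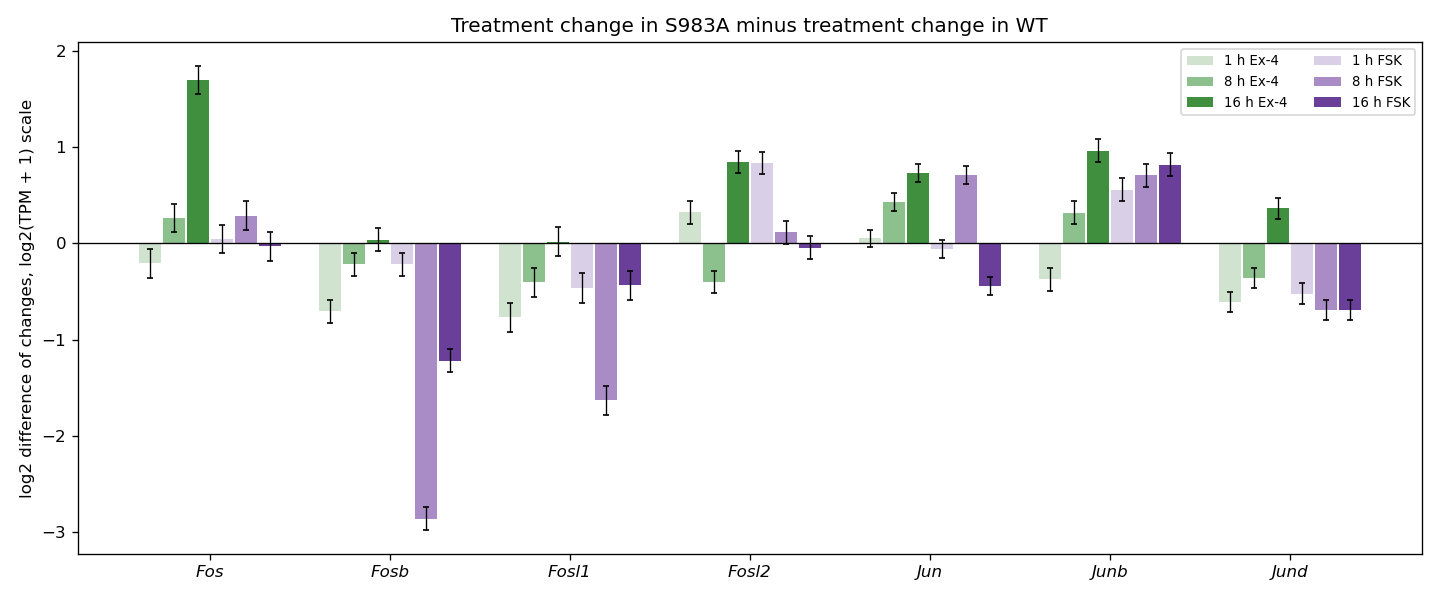
Treatment change in S983A minus treatment change in WT on the log2(TPM + 1) scale for each gene and each agent and time, bars being the limma estimate and error bars its SE. The lowest bar is Fosb at 8 h of FSK (-2.86) and the highest is Fos at 16 h of Ex-4 (1.70).

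AP-1 is made of pairs, so the summed levels of the families were set beside each other, as a description. In WT CON the 4 FOS members summed to 4.38 ± 0.19 TPM (SD, n = 2) and the 3 JUN members to 132 ± 7.97 TPM. In S983A CON the sums were 2.69 ± 0.16 and 150 ± 13.3 TPM. JUN transcripts thus exceeded FOS transcripts in CON, most of them being Jund, with 74.5% of the sum of all 7 in WT and 80.7% in S983A.

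After 1 h of FSK the FOS sum was 787 ± 2.39 TPM in WT and 842 ± 62.2 in S983A, and the JUN sum 1893 ± 38.3 and 1526 ± 73.0. Junb then made up 52.7% of all 7 in WT and 45.0% in S983A, and Jund 15.7% and 14.9%. After 1 h of Ex-4 the FOS sums were 198 ± 10.5 and 164 ± 1.88 TPM and the JUN sums 669 ± 19.3 and 399 ± 48.8. Fosl2 held the largest share of any FOS member in each treated group, from 4.46% of all 7 in S983A at 8 h of Ex-4 to 21.6% in S983A at 1 h of FSK. The ratio of FOS to JUN transcripts was highest at 8 h of FSK in WT (0.529 ± 0.000602) and at 1 h of FSK in S983A (0.553 ± 0.0672).

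**Figure D5:**
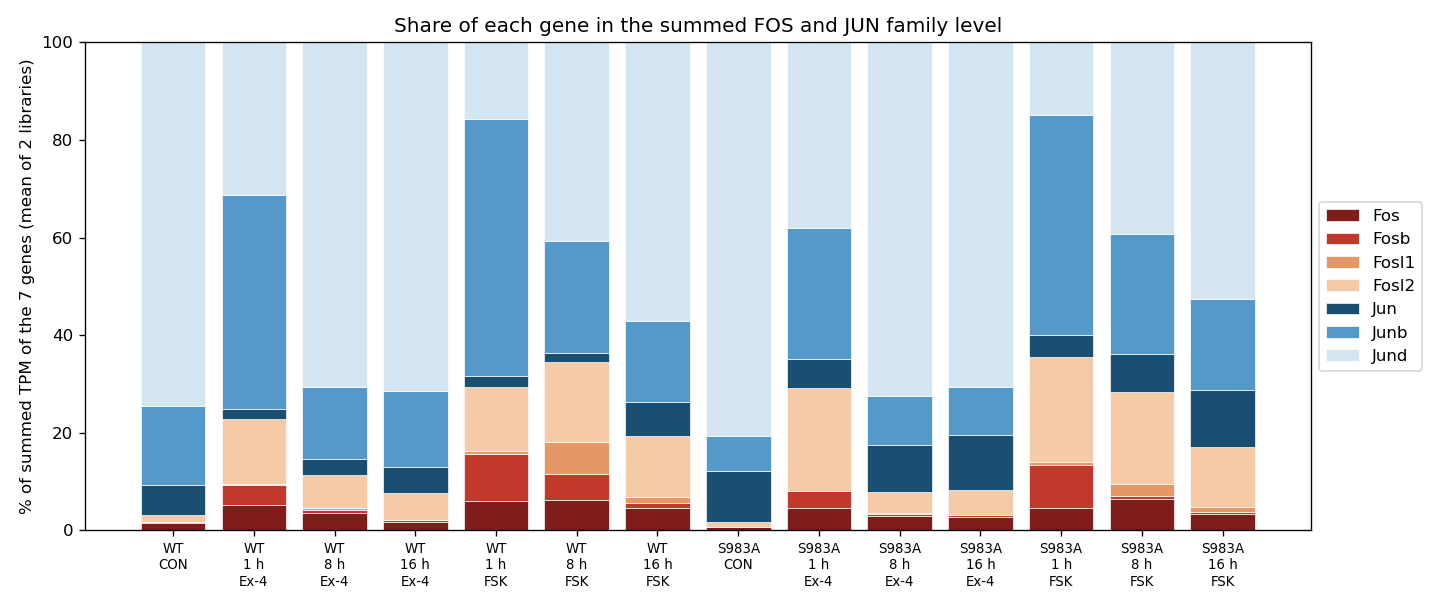
Share of each gene in the summed TPM of the 7 genes, in percent, for the 14 groups, each bar the mean of 2 libraries. Jund takes 74.5% of the bar in WT CON and 15.7% after 1 h of FSK in WT, where Junb takes 52.7%.

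The order of levels over the 14 groups differed between members. Fos, Fosb, Junb and Jund were highest in WT at 1 h of FSK, Fosl2 and Jun in S983A at 1 h of FSK, and Fosl1 in WT at 8 h of FSK. The lowest group was S983A CON for Fos, Fosb, Fosl1, Fosl2 and Junb, WT at 8 h of Ex-4 for Jun and WT at 16 h of Ex-4 for Jund. Of 13 neighbouring pairs of groups in the order of each member, the libraries overlapped in 2 for Fosb, Fosl2 and Junb, 4 for Fos, Fosl1 and Jun, and 5 for Jund.

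Over the 14 group means, Pearson's r between members on the log2(TPM + 1) scale ran from 0.46 for Fosl1 and Jun to 0.98 for Fos and Fosl2. These values describe groups that share controls and genotype and are given with no p. The genes most like a member by the same measure were Nfil3, a bZIP repressor (r = 0.98 with Fos), Egr4 (0.99 with Fosb), an immediate early zinc finger factor, and Gpr3 (0.95 with Fosl1), a receptor that raises cyclic AMP. They were Nr4a2, an immediate early nuclear receptor, for Junb (0.98), Dlx2, a homeobox factor, for Jund (0.97) and Ddit4, a stress-induced inhibitor of mTORC1, for Jun (0.91). Rgs2, a regulator of G protein signalling, stood among the 3 nearest for both Fos and Fosl2 (0.98 each), which were also among the nearest of each other. The remaining genes among the 3 nearest were Ppp1r11 and Egr1 for Fosb, Tinf2 and Btg1 for Fosl1, LOC689986 for Fosl2, Rmdn3 and Trmt10c for Jun, Znrd1 and Dusp1 for Junb, and Fam220a and Pnrc1 for Jund, with r from 0.88 to 0.98.

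Other genes of the pathway were read from lists chosen with earlier results known. Among 9 tested relatives of AP-1 factors in the bZIP class, 3 were called higher at 1 h in each of the 4 contrasts: Atf3, Maff and Mafk. Atf3, a stress-induced bZIP factor, went from 3.83 ± 0.03 TPM in WT CON to 19.6 ± 2.67 after 1 h of Ex-4 and 61.7 ± 6.62 after 1 h of FSK (SD, n = 2). With FSK in WT it was lower at 8 h, at 17.7 ± 0.93 TPM, and at 57.3 ± 3.46 TPM again at 16 h. Maff, a small MAF protein, went from 3.42 ± 0.72 to 21.7 ± 1.94 and 54.0 ± 3.10 TPM at 1 h. Mafk, another small MAF protein, went from 33.5 ± 1.58 TPM in WT CON to 69.3 ± 0.50 at 1 h of FSK.

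Of 20 kinases and transcription factors upstream of FOS and JUN, 0 were called higher at 1 h by limma in any of the 4 contrasts, 1 had an unadjusted p under 0.05 and was higher, after Ex-4 in WT, and the medians of the list lay between -0.09 and -0.03. Mapk3, which encodes the kinase ERK1, fell from 400 ± 18.6 TPM in WT CON to 79.7 ± 0.89 at 8 h of FSK.

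Of 20 genes commonly listed as AP-1 targets, 11 were tested, and 4 were called higher at 1 h in WT with each agent and 6 at 8 h with each. In S983A, 3 were called higher at 1 h with each agent, 4 at 8 h of Ex-4 and 7 at 8 h of FSK, where 1 was called lower. At 16 h of Ex-4 the list split, with 2 higher and 1 lower in WT and 3 higher and 3 lower in S983A. At 16 h of FSK, 6 were higher in each genotype and 1 was lower in S983A. Of all genes, 1.75% to 3.19% were called higher at 1 h, 3.21% to 11.6% at 8 h and 3.53% to 12.2% at 16 h. The 4 at 1 h in WT were Ccnd1, Vegfa, Hbegf and Lif. Timp1, an inhibitor of metalloproteinases, was lower at 1 h of FSK in WT (log2 -0.59 ± 0.18, limma adjusted p = 0.0106). It was also lower at 1 h of FSK in S983A (-0.72 ± 0.18, limma adjusted p = 0.00166). Ccnd1, which encodes cyclin D1, was at 0.43 ± 0.10 TPM in WT CON, 4.36 ± 0.66 at 1 h of FSK and 57.4 ± 0.37 at 8 h of FSK. In S983A Ccnd1 was at 0.08 ± 0.01 TPM in CON and 0.56 ± 0.04 at 1 h of FSK, and its log2 differences at 1 h, 0.07 with Ex-4 and 0.54 with FSK, were not called, while at 8 h of FSK it was at 53.1 ± 1.62 TPM. Hbegf, a growth factor of the EGF family, was at 43.4 ± 1.25 TPM in WT CON and 291 ± 2.52 at 1 h of FSK, and at 5.42 ± 0.31 and 114 ± 10.3 TPM in S983A. Hmox1, which encodes the heme-degrading enzyme HO-1, was not called at 1 h and was at 88.5 ± 2.00 TPM at 8 h of FSK in WT, from 17.4 ± 0.91 in CON, and at 183 ± 6.91 in S983A, from 14.7 ± 0.35.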

How the data were processed

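RNA-seq was analysed in 28 libraries of rat INS-1 cells, 2 in each of 14 groups given by the labels. Per the file headers and the study's methods, reads were aligned to rn6 plus the 92 ERCC spike-in sequences with STAR 2.5.3a, and the authors quantified TPM over the exons of RefSeq transcripts with HOMER 4.11.1, 1 row for each transcript. A second deposited table gives raw counts of the ERCC sequences, which were added to an equal mass of RNA for each library and took 0.671 to 1.03% of counts. The library numbers in the column names differ from those in the labels, so columns were matched on genotype, agent, time and replicate.

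For each symbol the transcript with the highest mean TPM was kept (17455 symbols, 1676 transcripts dropped). The 10275 genes averaging 1 TPM or more over all libraries were tested on log2(TPM + 1) with limma 3.58.1 in 1 fit with 14 group means, 14 residual degrees of freedom and 29 contrasts. P-values were adjusted by Benjamini-Hochberg over all genes within a contrast, and calls needed both an adjusted p below 0.05 and more than a 1.5-fold difference. The study used DESeq2, which needs counts, so limma was used on the TPM. Whole fragments were recovered from TPM, length and ERCC counts (100% of 54748 low values whole within 0.05 reads), and edgeR 4.0.16 and DESeq2 1.42.0 were run on them as alternatives. The scripts were tested on simulated data. The members and gene lists were chosen with earlier results of these data known. The rule for named genes took the members, Med14, the 3 genes most like each member over the 14 group means, and list genes called at 1 h in WT or with a mean over 10 TPM and at least 6 of 12 treatment contrasts called. Ift74 and Fggy stand outside it and were chosen after their values were seen. A count covers counting error only; fragments without molecular identifiers are not independent molecules.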

Additional observations from a re-analysis of the deposited data

Results flagged for a closer look

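The treatment change differed between S983A and WT in 16 cases by the interaction test of limma, each given here as the log2 change in S983A minus that in WT. At 1 h of Ex-4 it was smaller in S983A for Fosb (-0.71), Fosl1 (-0.77) and Jund (-0.61), and at 1 h of FSK it was larger for Fosl2 (0.83). At 8 h of FSK it was smaller for Fosb (-2.86), Fosl1 (-1.63) and Jund (-0.70) and larger for Jun (0.71) and Junb (0.71). At 16 h of Ex-4 it was larger for Fos (1.70), Fosl2 (0.84), Jun (0.73) and Junb (0.96). At 16 h of FSK it was smaller for Fosb (-1.22) and Jund (-0.70) and larger for Junb (0.82). Junb in S983A CON stood at 0.493 times WT in mean TPM. Its S983A libraries lay below WT at 8 and 16 h of FSK and overlapped WT at 16 h of Ex-4. In the CON libraries Fosl1 rested on 0 to 5 fragments and Fosb on 20 to 27. Neither edgeR nor DESeq2 called Fosb and Fosl1 at 1 h of Ex-4 or Fosl1 at 8 h of FSK. With spike-in scaling in limma, Fosb at 1 h and Fosl2, Jun and Junb at 16 h of Ex-4 were lost. Leaving out single libraries lost Fosl1 and Jund at 1 h of Ex-4.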

How the results depend on the processing

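The count of members called at 1 h was 28 under every alternative run, and at 8 h it ranged from 19 to 23, at 16 h from 17 to 22, for the genotype difference at CON from 2 to 5, for the interaction from 12 to 24 and for Ex-4 against FSK from 35 to 40. With no fold minimum the genotype difference at CON was called for 5 members instead of 3, and 16 h against 8 h for 25 instead of 13. With ERCC scaling 16 h against 8 h was called for 8, and the median change of all genes between those times with FSK moved from 0.11 to 0.45 in WT and from 0.15 to 0.45 in S983A. The interaction of Fosl1 at 1 h of Ex-4 turned from -0.77 to 0.027 with DESeq2 and 0.011 with DESeq2 and ERCC size factors, and the cause was not tested. Over 3416 values of single members, 3273 kept their call, 46 were no longer called and 95 were newly called. A further 2, the DESeq2 values of Fosl1 just named, were no longer called and changed sign. Another 85 changes of sign, among values not called either way, were not counted with them. Leaving out 1 library at a time gave 28 calls at 1 h, 19 to 20 at 8 h, 17 to 18 at 16 h, 2 to 3 for the genotype difference, 14 to 17 for the interaction, 35 to 36 for Ex-4 against FSK and 13 to 14 for 16 h against 8 h. The interaction count of 14 was that without WT 1 h Ex-4 replicate 2. The same replicate numbers occur in all groups, and the deviations of same-numbered libraries correlated between -0.28 and 0.28 over 91 pairs of groups (17 over 0.1), so the numbers were not taken as pairs. With the replicate block the counts were 28, 19, 18, 3, 16, 36 and 13, and no call changed. Low counts limit Fosl1 and Fosb in CON. Of the group levels of the members, ERCC scaling moved 62 by more than the SD of the 2 libraries and left 36 within it, and summing over transcripts moved 28 and left 70 within it.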
